A study of Rattus norvegicus with 9 samples.

Results

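The 10 genes described here encode receptors, membrane adaptors and a lysosomal marker of macrophages and other myeloid cells: Cd68, Cd14, Mrc1, Cd163, Csf1r, Lilrb4, Siglec5, Lst1, Tyrobp and Fcer1g. They were chosen by name as macrophage and myeloid receptors, and each was found at 1 locus among the 30315 loci of the deposited table. Renal outer medulla RNA came from 9 rats of strain MCW SS, a salt-sensitive strain, with 1 library per rat and 3 rats per group. HS_DT rats received GapmeRs (antisense oligonucleotides that direct degradation of an RNA) against Dnmt3a and Tet3 into the kidney, at 2 mg/kg each, and ate a diet with 4% NaCl for 7 days. HS_SCR rats received a scrambled GapmeR by the same route at 4 mg/kg and ate the 4% NaCl diet for 7 days. The 0.4% salt rats had the same surgery on a diet with 0.4% NaCl, and their tissue was taken at the point where GapmeR and the high-salt diet would otherwise have begun. HS_SCR and 0.4% salt rats therefore differ in diet, GapmeR injection and time together. No ages are stated. Dnmt3a adds methyl groups to DNA, and Tet3 oxidises them as a step towards their removal.

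Macrophages live in the interstitium of the kidney between the tubules. Csf1r, the receptor for the growth factors Csf1 and Il34, keeps them alive. Many activating receptors of myeloid cells have no signalling tail of their own and pair with a small transmembrane adaptor, Tyrobp (also called DAP12) or Fcer1g (the Fc receptor gamma chain), whose ITAM tyrosines recruit the kinase Syk. Inhibitory receptors such as Lilrb4 work against these signals through phosphatases. Cd14, Mrc1 and Cd163 bind bacterial lipopolysaccharide, mannose-bearing glycoproteins and haemoglobin-haptoglobin complexes, and Cd68 is a glycoprotein of macrophage lysosomes.

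Levels are FPKM, the authors' values of fragments scaled to transcript length and to the mapped fragments of the library. Read totals are unknown. A relative depth estimated from the steps between low values ran between 0.768 in HS_SCR replicate 2 and 1.35 in HS_DT replicate 2, with 0.4% salt replicate 1 set to 1. Dnmt3a, a target of the GapmeRs, measured 8.72, 10.3 and 11.02 FPKM in HS_DT, 7.05, 5.75 and 10.3 FPKM in HS_SCR, and 13.4, 12.2 and 12.9 FPKM in 0.4% salt kidneys. Tet3 measured 7.62, 8.54 and 7.92 FPKM in HS_DT, 5.04, 5.47 and 8.20 FPKM in HS_SCR, and 9.38, 8.47 and 9.64 FPKM in 0.4% salt kidneys. For both targets the HS_DT mean was above the HS_SCR mean, against the direction that the HS_DT label implies, and HS_DT below means the libraries labelled so. In HS_SCR replicate 3, 7 loci exceeded 5 FPKM and 8 times the highest other library, Cd163 among them, against 1 to 6 such loci in each other library. Leaving it out raised the share of all loci called higher in HS_SCR than in 0.4% salt kidneys to 20.5%, against 8.20% with it. Outer medulla markers were present in every library, with Slc12a1, the salt transporter of the thick ascending limb, at 451 FPKM or above. The rat numbers in the titles fall into a lower run (2 HS_DT and 2 HS_SCR rats) and a higher run (1 HS_DT, 1 HS_SCR and all 3 0.4% salt rats), which the labels do not explain. In whole tissue, fewer cells of a type and less RNA per cell cannot be told apart.

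Promoters of Cd68, Mrc1 and Cd163 are shown because these genes stand for 3 of the patterns found over the libraries. Cd68 was above 0.4% salt in all high-salt libraries. Mrc1 was high in HS_SCR with HS_DT overlapping 0.4% salt, and Cd163 was high in 1 library. Fcer1g followed none of these patterns. Each window covers 250 bases before the gene start and 50 after it, 5′ to 3′ on the gene's strand, from RefSeq on build GRCr8. Capitals mark GAGGAA or its reverse complement TTCCTC, the core letters bound by the myeloid factor PU.1 (encoded by Spi1). Cd68 lies at chr10:54882392-54882691 on the minus strand, Mrc1 at chr17:82157475-82157774 on the plus strand and Cd163 at chr4:158770524-158770823 on the plus strand.
Cd68: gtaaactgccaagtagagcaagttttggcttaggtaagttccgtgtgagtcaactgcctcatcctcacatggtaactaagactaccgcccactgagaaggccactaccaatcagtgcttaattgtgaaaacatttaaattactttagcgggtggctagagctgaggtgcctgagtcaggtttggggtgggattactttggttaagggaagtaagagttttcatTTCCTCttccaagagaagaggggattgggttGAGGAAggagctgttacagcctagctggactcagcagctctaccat
Mrc1: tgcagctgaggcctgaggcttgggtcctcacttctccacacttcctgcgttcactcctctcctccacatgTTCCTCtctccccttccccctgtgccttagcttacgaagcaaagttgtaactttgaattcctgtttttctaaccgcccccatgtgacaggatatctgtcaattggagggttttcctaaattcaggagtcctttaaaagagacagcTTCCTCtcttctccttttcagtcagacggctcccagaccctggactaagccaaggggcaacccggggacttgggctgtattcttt
Cd163: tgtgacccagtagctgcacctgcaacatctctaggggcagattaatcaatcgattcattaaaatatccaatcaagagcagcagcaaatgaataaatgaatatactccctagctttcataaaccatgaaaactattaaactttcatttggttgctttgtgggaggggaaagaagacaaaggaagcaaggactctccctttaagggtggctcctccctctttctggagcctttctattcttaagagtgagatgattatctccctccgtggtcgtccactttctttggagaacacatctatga
The Cd68 window held GAGGAA in both orientations, starting at bases -27 and 4 from the gene start, and the Mrc1 window held TTCCTC at bases -180 and -35. The Cd163 window held neither form, which says only that these letters are not in this window. Windows were at hand for 7 of the 10 genes, and 6 of them held a match on either strand. Among all 33469 promoter windows of the same length, 9239 held a match (27.6%). A match is a description of letters and not a binding site.

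Levels of most of these genes were higher in HS_SCR than in 0.4% salt kidneys. All 10 had a positive change, with a median of 0.90 on the log2(FPKM + 1) scale against 0.02 over all 14338 loci tested. The Cd163 change among them rests mostly on HS_SCR replicate 3, at 64.9 FPKM. Cd163 passed the filter on low values only through that library, so its change is a description. Cd68, Cd14, Mrc1, Lilrb4, Siglec5, Lst1 and Tyrobp rose (limma adjusted p under 0.05), by 0.73 in Siglec5 to 1.48 in Mrc1. These are 7 of 10 genes, where 8.20% of all loci rose. None fell, where 4.88% of all loci fell. Csf1r, Fcer1g and Cd163 did not pass the test.

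**Figure D1:**
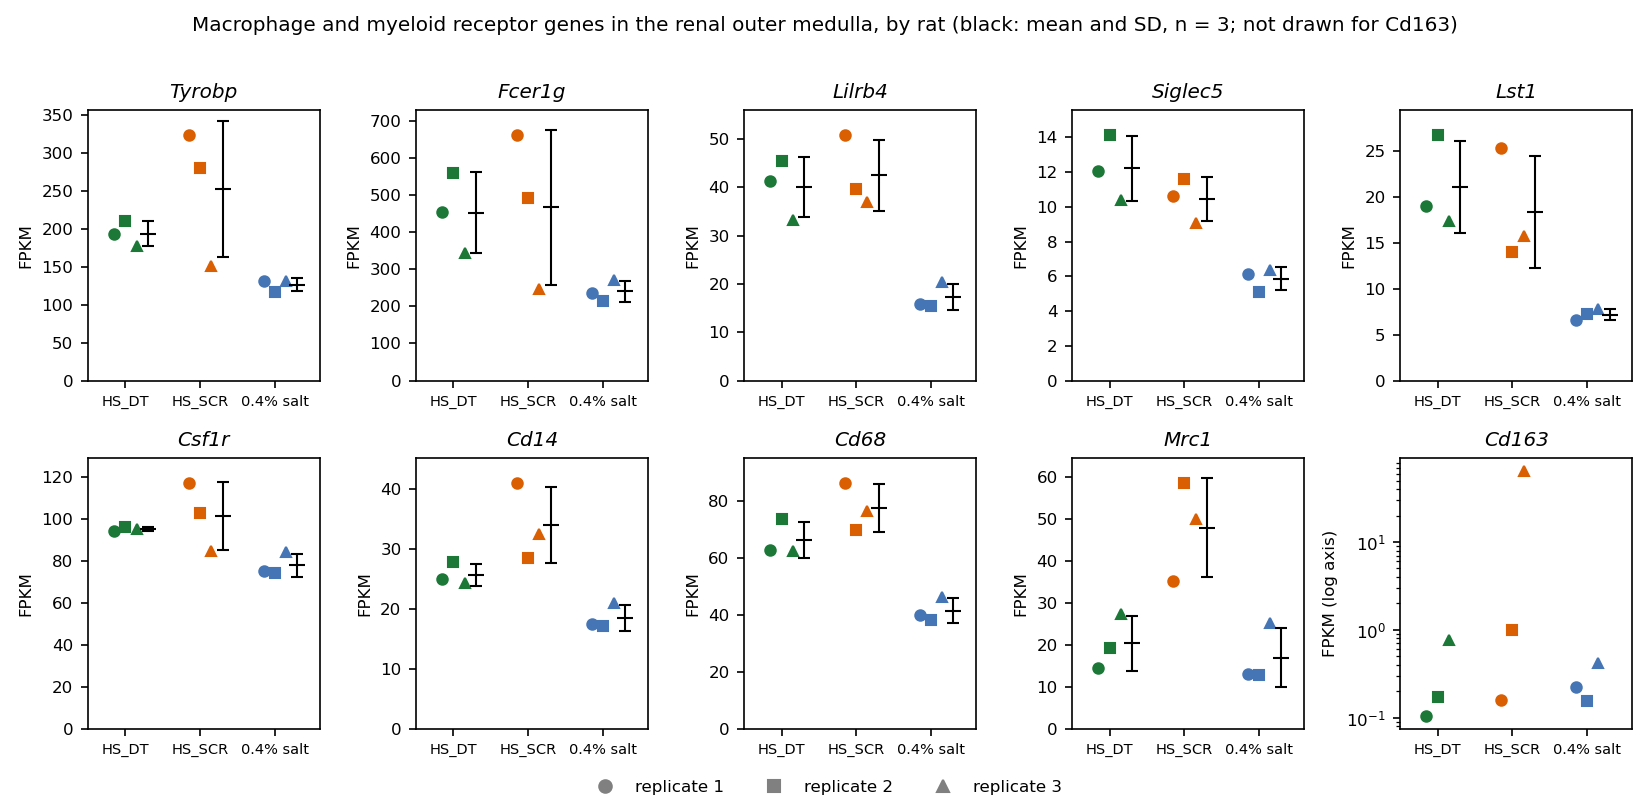
FPKM of the 10 genes in each library, with a panel per gene and groups from left to right HS_DT, HS_SCR and 0.4% salt. Points are libraries and bars are means ± SD (n = 3), except for Cd163, drawn on a log axis with no mean, where HS_SCR replicate 3 at 64.9 FPKM stands far above the other 8 libraries.

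On build rn5, Tyrobp lies at chr1:90031066-90034982, Fcer1g at chr13:94228756-94233540, Lilrb4 at chr1:75149216-75154600, Siglec5 at chr1:99639152-99647788 and Lst1 at chr20:7243479-7252515. Csf1r lies at chr18:55656479-55689297, Cd14 at chr18:29265352-29267109, Cd68 at chr10:56014364-56016255, Mrc1 at chr17:83099369-83180717 and Cd163 at chr4:223769349-223802725. Values are per whole gene locus, exons and untranslated regions not separated. Lilrb4 and Siglec5 belong to multigene families, and how fragments shared with near copies were assigned is not stated, so their levels are uncertain to that extent.

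Among the adaptors, Fcer1g was the most abundant of the 10 genes by mean FPKM in all 3 groups, and Tyrobp came next. Tyrobp measured 193, 209.9 and 178 FPKM in HS_DT, 324, 280.2 and 151 FPKM in HS_SCR, and 131, 117 and 132 FPKM in 0.4% salt kidneys. All 6 libraries of the high-salt diet lay above the 3 of 0.4% salt, and HS_SCR replicate 3 was the lowest of them. Tyrobp rose by 0.92 ± 0.24 (log2, SE) in HS_SCR over 0.4% salt kidneys, with a limma adjusted p of 0.0431. This call was lost when any single library other than HS_SCR replicate 3 was left out of the fit. Fcer1g measured 455, 562 and 344 FPKM in HS_DT, 664, 493 and 247 FPKM in HS_SCR, and 237, 215 and 271 FPKM in 0.4% salt kidneys. HS_SCR replicate 3 lay within the range of 0.4% salt, while the other 2 HS_SCR libraries lay far above it. The Fcer1g difference of 0.85 ± 0.33 had a limma adjusted p of 0.121.

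Lilrb4, an immunoglobulin-like receptor with inhibitory tyrosine motifs, measured 41.2, 45.5 and 33.2 FPKM in HS_DT, 50.9, 39.6 and 36.9 FPKM in HS_SCR, and 15.8, 15.5 and 20.4 FPKM in 0.4% salt kidneys. Its HS_SCR libraries were all far above the highest 0.4% salt library. It rose by 1.25 ± 0.16 in HS_SCR over 0.4% salt kidneys (limma adjusted p 0.00642). Siglec5, a sialic acid-binding lectin known in human as an inhibitory receptor, measured 12.1, 14.1 and 10.4 FPKM in HS_DT, 10.6, 11.6 and 9.09 FPKM in HS_SCR, and 6.14, 5.10 and 6.37 FPKM in 0.4% salt kidneys. The HS_SCR and 0.4% salt ranges were clearly apart, and the HS_DT libraries were as high as those of HS_SCR. It rose by 0.73 ± 0.14 (limma adjusted p 0.0149). Lst1, a small transmembrane protein of leukocytes, measured 19.0, 26.8 and 17.4 FPKM in HS_DT, 25.3, 14.02 and 15.8 FPKM in HS_SCR, and 6.55, 7.21 and 7.82 FPKM in 0.4% salt kidneys. Every library of the high-salt diet was well above the 0.4% salt range. Lst1 rose by 1.201 ± 0.22 (limma adjusted p 0.0150). Its locus overlaps that of Ncr3, which averaged 1.23 FPKM, and whether counting used the strand is not stated.

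Csf1r, the growth factor receptor, had the smallest change of the 10 genes between HS_SCR and 0.4% salt kidneys. It measured 94.0, 96.2 and 95.3 FPKM in HS_DT, 117, 103 and 84.7 FPKM in HS_SCR, and 75.3, 74.1 and 84.1 FPKM in 0.4% salt kidneys. The 3 HS_DT libraries were nearly equal, and HS_SCR replicate 3 was only just above the highest 0.4% salt library. Its difference of 0.37 ± 0.12 between HS_SCR and 0.4% salt kidneys had a limma adjusted p of 0.0688. Without HS_SCR replicate 3, Csf1r and Fcer1g passed as well, and 9 of the 9 genes then tested rose, where 20.5% of all loci did.

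Cd14, which presents lipopolysaccharide to the receptor Tlr4, measured 25.1, 27.8 and 24.3 FPKM in HS_DT, 41.0, 28.5 and 32.5 FPKM in HS_SCR, and 17.5, 17.1 and 21.0 FPKM in 0.4% salt kidneys. The 3 ranges did not overlap, with HS_DT between the other 2 groups. Cd14 rose by 0.83 ± 0.14 in HS_SCR over 0.4% salt kidneys (limma adjusted p 0.0108). Cd68 measured 62.9, 73.7 and 62.4 FPKM in HS_DT, 86.3, 69.8 and 76.5 FPKM in HS_SCR, and 39.8, 38.1 and 46.5 FPKM in 0.4% salt kidneys. HS_DT overlapped HS_SCR, and both were above 0.4% salt. Cd68 rose by 0.89 ± 0.12 (limma adjusted p 0.00638), the smallest adjusted p among the 10 genes.

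Mrc1, the mannose receptor of macrophages and of some endothelial cells, measured 14.5, 19.3 and 27.5 FPKM in HS_DT, 35.2, 58.7 and 49.98 FPKM in HS_SCR, and 12.97, 12.8 and 25.2 FPKM in 0.4% salt kidneys. The HS_SCR libraries were above all 6 others, and HS_DT overlapped 0.4% salt. Mrc1 rose by 1.48 ± 0.31 in HS_SCR over 0.4% salt kidneys (limma adjusted p 0.0214). Cd163, the haemoglobin scavenger receptor, measured 0.103, 0.171 and 0.766 FPKM in HS_DT, 0.160, 0.989 and 64.9 FPKM in HS_SCR, and 0.222, 0.153 and 0.422 FPKM in 0.4% salt kidneys. One HS_SCR library was 65.6 times the highest of the other 8, whose mean was 0.373 FPKM, and the ranges of the 3 groups overlapped. Cd163 passed the filter on low values only through that library, and its change of 2.08 ± 1.27 had a limma adjusted p of 0.288. The other 9 genes were at 1 FPKM or more in every library.

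HS_SCR and 0.4% salt ranges did not overlap for 8 of the 10 genes, all higher in HS_SCR, where 19.1% of loci did so. Unadjusted p was under 0.05 for 9 genes, where 32.0% of all loci had one. A two-sided exact permutation test with 3 libraries a side gave 0.1, its smallest possible p, for the same 8 genes, and this design cannot go lower. Cd68 and Lilrb4 were the 2 of 10 genes that rose without 0.4% salt replicate 1, where 2.29% of all loci rose, and again without 0.4% salt replicate 2, where 1.81% did. With the mean log2 level of proximal tubule markers, of which 5 of 16 fell in HS_SCR, as a covariate no member passed. None of the 14338 loci did either, while the median change of the 10 genes was 0.69. This level ran from 2.13 to 4.20 in HS_SCR and from 5.01 to 6.38 in 0.4% salt kidneys, without overlap. The covariate therefore cannot be fully separated from the group difference, and the lost calls decide nothing about it. Within the higher run of rat numbers (1 HS_SCR against 3 0.4% salt rats) all 10 differences were positive, with a median of 0.83, and the lower run holds no 0.4% salt rat.

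**Figure D2:**
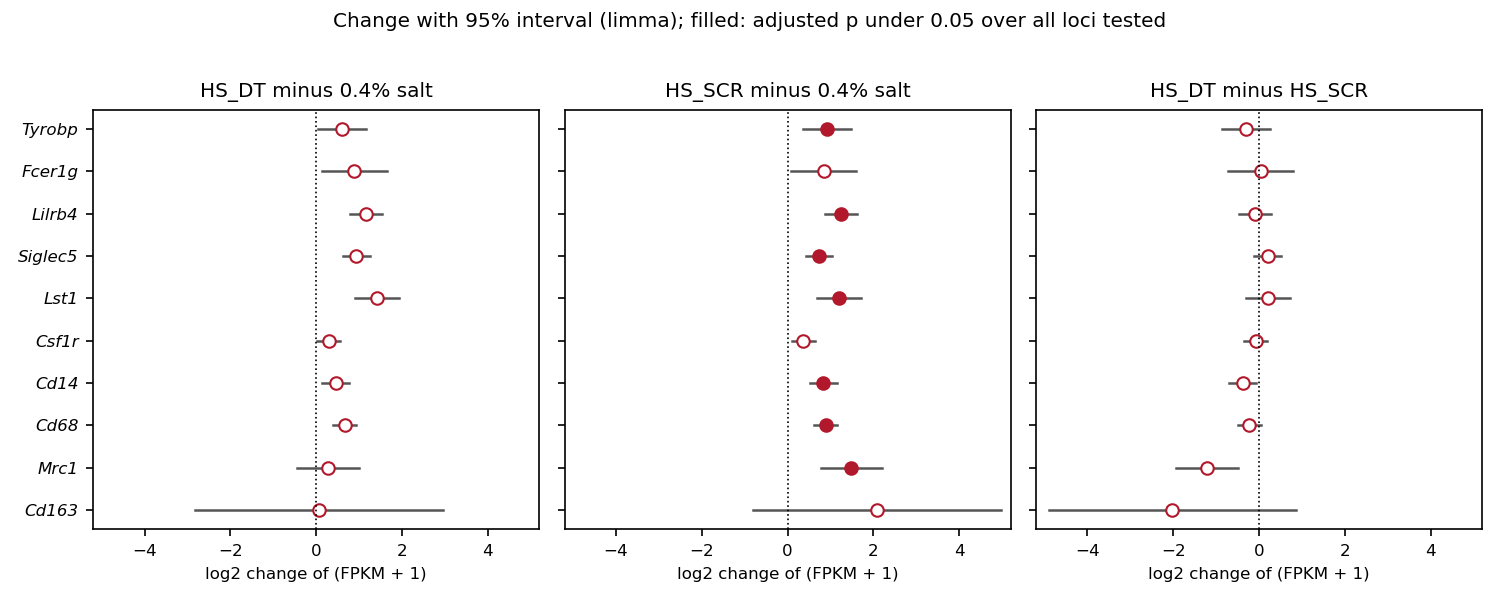
Log2 change of each gene with its 95% interval from limma, in panels for HS_DT minus 0.4% salt, HS_SCR minus 0.4% salt and HS_DT minus HS_SCR, with filled points for changes that passed an adjusted p of 0.05. All 10 points lie above 0 in both comparisons with 0.4% salt, and Mrc1, at -1.21, is the member other than Cd163 that lies farthest below 0 in HS_DT minus HS_SCR.

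Between the libraries labelled HS_DT and those labelled HS_SCR, both on the high-salt diet, no member passed the test, where 0.00697% of all loci fell and 0% rose. Mrc1 came nearest, at 14.5 to 27.5 FPKM in HS_DT and 35.2 to 58.7 FPKM in HS_SCR. Its difference was -1.21 ± 0.31, with a 95% interval of -1.92 to -0.49 and a limma adjusted p of 0.106. Cd14 was the other gene whose HS_DT range lay below that of HS_SCR, with a difference of -0.38 ± 0.14 (limma adjusted p 0.198). These 2 of 10 stand beside 12.5% of all loci with an HS_DT range below that of HS_SCR, and the exact permutation p was 0.1 for both. No member had an HS_DT range above that of HS_SCR, where 9.10% of all loci did. Mrc1 and Cd14 were also the 2 members with an unadjusted p under 0.05, where 19.1% of all loci had one.

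The other 8 genes had overlapping ranges in HS_DT and HS_SCR. Siglec5, Lst1 and Fcer1g had small positive differences, of 0.20 ± 0.14, 0.21 ± 0.22 and 0.04 ± 0.33. Lilrb4 and Csf1r were both at -0.08, with SE of 0.16 and 0.12. Cd68 was at -0.22 ± 0.12 and Tyrobp at -0.31 ± 0.24, and Cd163 was at -2.02 ± 1.27, with HS_SCR replicate 3 its one library above 1 FPKM. Limma adjusted p for these genes lay between 0.334 and 0.960, which does not show that the groups were alike. The median over the 10 genes was -0.15, against 0.00 over all loci. Without HS_SCR replicate 3, Tyrobp fell in HS_DT relative to HS_SCR by 0.64 on the log2 scale (limma adjusted p 0.0136), the single member called of 9 in that fit, where 9.29% of all loci fell. Within the lower run of rat numbers (2 against 2) Mrc1 differed by -1.39, and within the higher run (1 against 1) by -0.84. Of the 10 differences, 8 were negative in the lower run and 5 in the higher run. Tyrobp, Csf1r and Fcer1g were at -0.58, -0.20 and -0.18 in the lower run and at 0.23, 0.17 and 0.48 in the higher run.

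HS_DT kidneys also had higher levels of most of these genes than 0.4% salt kidneys, but no change passed the test. The HS_DT range lay above the 0.4% salt range for 8 of the 10 genes, all except Mrc1 and Cd163, where 14.2% of all loci did so. The exact permutation test again gave 0.1, its smallest possible p, for those 8. An unadjusted p under 0.05 was found for 8 genes, where 7.49% of all loci had one. After adjustment no member passed in limma, and 0% of the 14338 loci were called. Lst1 differed by 1.41 ± 0.22 (limma adjusted p 0.228), Lilrb4 by 1.17 ± 0.16 (0.207) and Siglec5 by 0.94 ± 0.14 (0.207).

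Fcer1g was higher by 0.89 ± 0.33, Cd68 by 0.67 ± 0.12, Tyrobp by 0.61 ± 0.24 and Cd14 by 0.46 ± 0.14 in HS_DT than in 0.4% salt kidneys, with limma adjusted p between 0.228 and 0.611. Csf1r, Mrc1 and Cd163 had the smallest values, at 0.29 ± 0.12, 0.28 ± 0.31 and 0.06 ± 1.27. The median of the 10 genes was 0.64, against 0.01 over all loci. Within the higher run of rat numbers (1 against 3) all 10 differences were positive, with a median of 0.55. This comparison and that of HS_SCR share the 0.4% salt libraries, so their likeness is not independent. Over the 3 groups together, the limma F test called Cd68, Cd14, Lilrb4, Siglec5 and Lst1, 5 of 10 genes where 5.61% of all loci were called. Mrc1 had an adjusted p of 0.05002 in that test and was just outside.

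**Figure D3:**
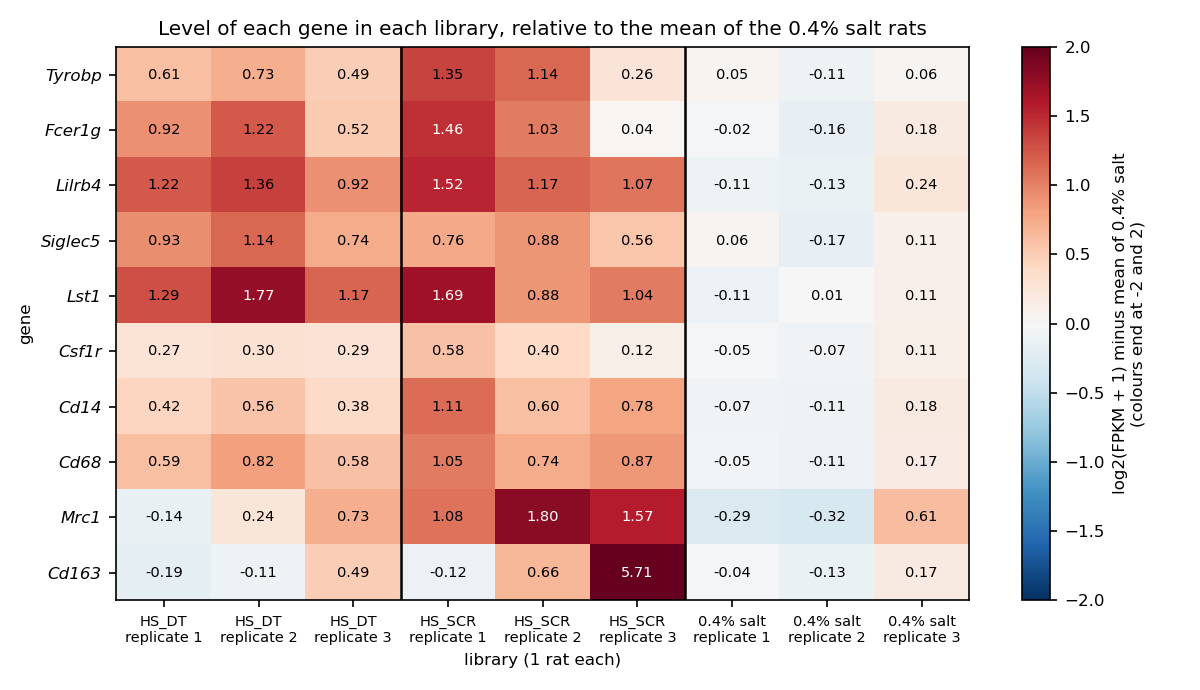
Heat map of log2(FPKM + 1) of each gene in each library minus the mean of the 0.4% salt libraries, with libraries ordered HS_DT, HS_SCR and 0.4% salt. The Fcer1g value of 0.04 and the Tyrobp value of 0.26 in HS_SCR replicate 3 stand beside its Mrc1 value of 1.57 and Cd163 value of 5.71.

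HS_SCR replicate 3 split the 10 genes. It was the lowest of its group for Csf1r, Fcer1g, Lilrb4, Siglec5 and Tyrobp, and the highest for Cd163. Other myeloid genes, picked here after their values were seen, split in the same library. Fcgr2b, an inhibitory Fc receptor, reached 36.3 FPKM there against at most 10.03 FPKM elsewhere. Clec7a, a receptor for beta-glucan, reached 37.9 FPKM against at most 18.4 FPKM. Msr1, a scavenger receptor, reached 16.04 FPKM against at most 7.49 FPKM. Spi1 was at 19.7 FPKM against at least 22.7 FPKM, and Aif1, a calcium-binding protein of macrophages, at 55.0 FPKM against at least 64.6 FPKM in the other 8 libraries. Mmp7, a protease made by tubule cells, was at 32.9 FPKM in it against at most 1.47 FPKM elsewhere. Hba1 was at 1267 FPKM in HS_SCR replicate 3 and at 8246 FPKM in HS_SCR replicate 1, whose Cd163 level was 0.160 FPKM. Whether Cd163 and haemoglobin RNA levels are related was not tested.

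Other libraries had their own places within their groups. HS_DT replicate 2 was the highest of its group for 8 genes, and HS_DT replicate 3 was the highest for the other 2, Mrc1 and Cd163. The highest 0.4% salt value was that of replicate 3 for all 10 genes, and replicate 2 was the lowest for 9. The summed FPKM of the 10 genes was 917, 1075 and 793 in HS_DT, 1354, 1099 and 769 in HS_SCR, and 542, 503 and 615 in 0.4% salt kidneys. Every high-salt library was above every 0.4% salt library in this sum, most of which is Fcer1g and Tyrobp. Ptprc, the CD45 antigen of all leukocytes, measured 21.4, 23.3 and 23.3 FPKM in HS_DT, 22.8, 20.01 and 16.3 FPKM in HS_SCR, and 19.7, 20.5 and 20.7 FPKM in 0.4% salt kidneys. Its difference between HS_SCR and 0.4% salt kidneys was -0.05 ± 0.11 (limma adjusted p 0.792).

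Since FPKM is scaled by transcript length, levels can be ordered between genes. In HS_DT the order of mean FPKM was Fcer1g, Tyrobp, Csf1r, Cd68, Lilrb4, Cd14, Lst1, Mrc1, Siglec5 and Cd163, and the ranges of neighbours overlapped between Cd14 and Lst1 and between Lst1 and Mrc1. In HS_SCR Mrc1 came directly after Cd68, and ranges overlapped between Fcer1g and Tyrobp, between Csf1r and Cd68, and between neighbours from Mrc1 through Lst1. In 0.4% salt kidneys the order was Fcer1g at 241, Tyrobp at 126, Csf1r at 77.8, Cd68 at 41.5, Cd14 at 18.5, Lilrb4 at 17.2, Mrc1 at 16.97, Lst1 at 7.19, Siglec5 at 5.87 and Cd163 at 0.266 FPKM. There Cd14, Lilrb4 and Mrc1 were not separated from their neighbours in that stretch. Lilrb4 had a higher mean than Cd14 in both high-salt groups.

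Profiles over the 9 libraries were compared by the root mean square difference of log2(FPKM + 1), each profile centred on its own mean. The nearest pair was Cd68 and Cd14, at 0.10. Lilrb4 and Lst1 lay 0.20 apart, and the 2 adaptors Tyrobp and Fcer1g 0.21 apart. Siglec5 was nearest to Cd68 (0.22) and Csf1r nearest to Cd14 (0.23). Mrc1 was 0.54 from its nearest member, Cd14, and Cd163 was 1.497 from its nearest, Mrc1. The gene whose profile lay nearest to the mean of the 10 was Vim, an intermediate filament protein (0.086), followed by Cldn4, Tgif1, Pltp, Prr7, Bcat1, Lilrb3, Slc16a3, Plaur and Ptger2. That mean carries the single high Cd163 value. Without Cd163, a choice made after seeing the data, the nearest were Pdlim1 (0.094), RGD1563400, Tsc22d1, Clec4a1, Gmfg, Lyz2, Pi16, RGD1565363, Clec4a3 and Aph1b, and no gene was in both sets.

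Genes that work with these receptors were read from lists. Of 8 ligands and partners, Myd88, an adaptor of Toll-like receptors, rose in HS_SCR over 0.4% salt kidneys by 0.37 ± 0.08 (limma adjusted p 0.0262), and 7 did not pass. This 1 of 8 is near the 8.20% of all loci that rose. The Csf1r ligands Csf1 and Il34 had changes of 0.03 ± 0.35 and 0.03 ± 0.21. Tlr4, the partner of Cd14, was at -0.06 ± 0.10, and Hp, the haptoglobin whose haemoglobin complex Cd163 binds, was at 0.95 ± 0.33 (limma adjusted p 0.0881) and passed the filter only through HS_SCR. The median of the 8 was 0.25.

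Below the adaptors, 2 of 11 ITAM signalling genes rose, where 8.20% of all loci did. Blnk, a linker protein phosphorylated by Syk, rose by 0.81 ± 0.08 (limma adjusted p 0.00566), and Lyn, a Src-family kinase, by 0.27 ± 0.07 (0.0435). Blnk measured 49.0, 44.9 and 45.9 FPKM in HS_DT, 73.8, 63.9 and 72.1 FPKM in HS_SCR, and 38.7, 38.4 and 41.4 FPKM in 0.4% salt kidneys. The 3 groups were apart, with HS_DT in between. Syk itself was at -0.02 ± 0.16.

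Of 16 receptors that use Tyrobp or Fcer1g as listed, 9 were tested and 3 rose: Clec4e and Clec4d, C-type lectins that signal through Fcer1g, by 1.69 ± 0.24 and 1.497 ± 0.34, and Trem2, a lipid receptor that signals through Tyrobp, by 0.85 ± 0.14. Among other myeloid genes 25 were tested, of which 8 rose and 1 fell. Beside the counts of both lists, 8.20% of all loci rose and 4.88% fell. FOLR2, a folate receptor of macrophages, rose by 1.28 ± 0.17, Clec10a, a galactose-type lectin, by 1.26 ± 0.19, the lysosomal protease Ctss by 1.09 ± 0.12 and the inhibitory receptor Cd300a by 0.83 ± 0.17. The gene that fell, named here after its value was seen, was Cx3cr1, the fractalkine receptor, at -0.46 ± 0.12 (limma adjusted p 0.0382). Of 10 myeloid transcription factors only Cebpb rose, by 1.08 ± 0.19, a count near the share of all loci that rose. Spi1 was at 0.45 ± 0.30 (limma adjusted p 0.333). The medians were 0.85 in the adaptor-coupled receptors, 0.44 in the other myeloid genes and 0.28 in the transcription factors.

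Without HS_SCR replicate 3, 8 of 11 ITAM signalling genes, 7 of 9 adaptor-coupled receptors and 13 of 25 other myeloid genes rose, and 1 adaptor-coupled receptor and 1 other myeloid gene fell, where 20.5% of all loci rose and 15.7% fell. Without 0.4% salt replicate 2 the counts that rose were 1, 1 and 3, where 1.81% of all loci rose. In HS_DT against HS_SCR and in HS_DT against 0.4% salt kidneys no gene of any list was called, where 0.00697% and 0% of all loci were.

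**Figure D4:**
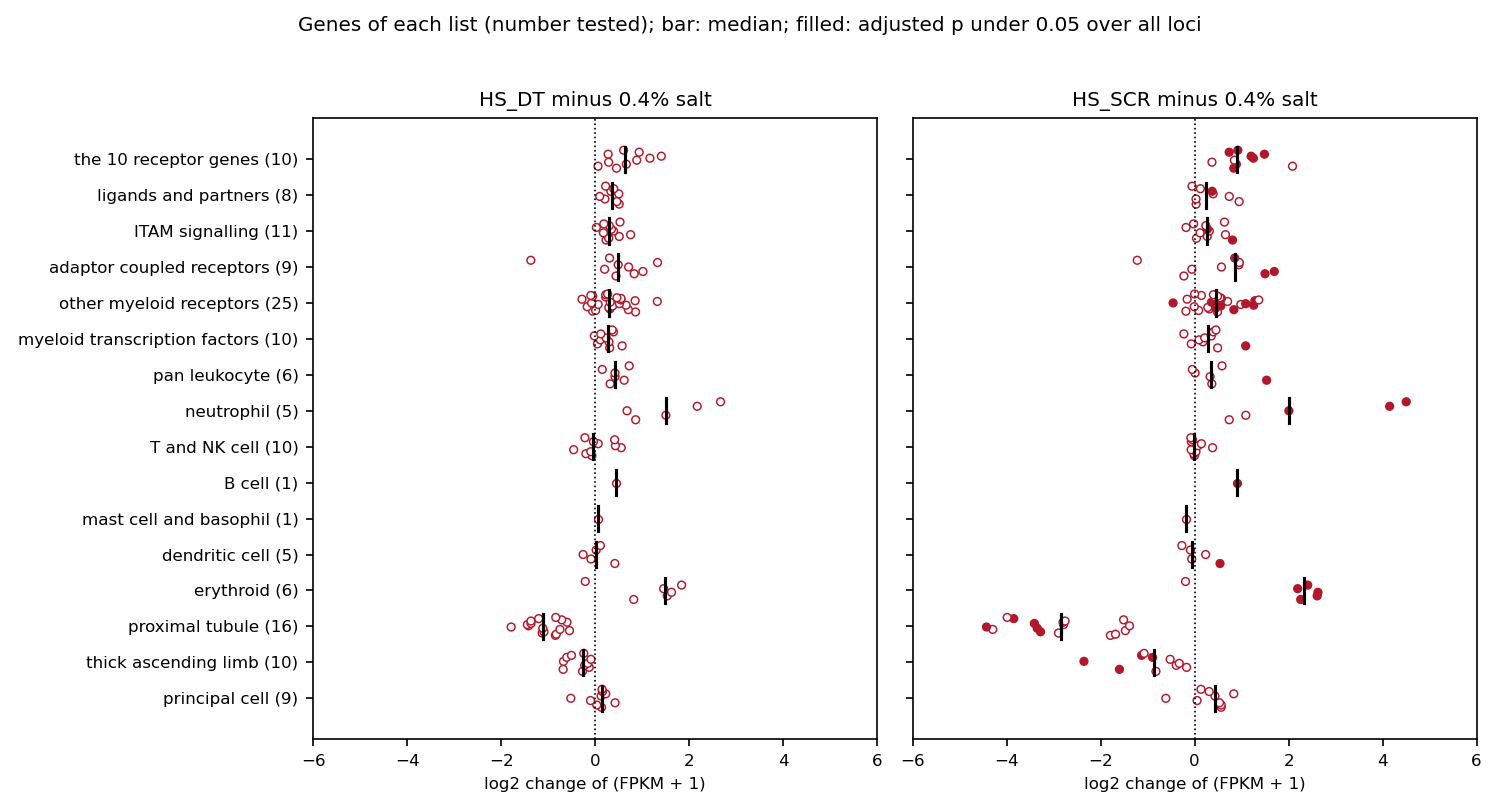
Log2 change of the tested genes of each list, with a point per gene, filled at an adjusted p under 0.05, and a bar at the list's median, in panels for HS_DT minus 0.4% salt and HS_SCR minus 0.4% salt. Neutrophil and erythroid genes reach the highest values of HS_SCR minus 0.4% salt and proximal tubule genes the lowest, with S100a9 at 4.50 and a median of -2.85 over 16 proximal tubule genes.

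Markers of some other cells also differed between HS_SCR and 0.4% salt kidneys, while no T and NK cell or principal cell gene passed. What part markers other than those of the proximal tubule had in the results above was not tested. The fit with the proximal tubule score, given above, decides nothing, because that score did not overlap between HS_SCR and 0.4% salt kidneys. Beside the counts of these lists, 8.20% of all loci rose and 4.88% fell. Of 14 neutrophil markers 5 were tested and 3 rose in HS_SCR over 0.4% salt kidneys: S100a9 by 4.50 ± 0.58, S100a8 by 4.15 ± 0.69 and Lcn2, which injured tubules also make, by 2.00 ± 0.31. The 14 markers together summed to 253 to 330.4 FPKM in HS_DT, 447 to 1120.3 FPKM in HS_SCR and 128 to 200.3 FPKM in 0.4% salt kidneys. Mpo and Elane, which encode neutrophil granule proteins, were at 0.568 FPKM or less in every library. Whether neutrophils were present was not tested by these levels. Of the erythroid genes, Hba1, Hba2, Hbb-b1 and Alas2 were called higher, and Slc4a1 did not pass. Ahsp, a chaperone of alpha globin, is not counted with them, for the reason given below. The globins Hba1 and Hbb-b1 rose by 2.62 ± 0.59 and 2.41 ± 0.62, and Alas2, which starts haem synthesis in red cells, by 2.61 ± 0.52. Ahsp averaged 1.56 FPKM in HS_DT, 6.56 FPKM in HS_SCR and 0.419 FPKM in 0.4% salt kidneys. It passed the filter only through HS_SCR, so its change of 2.26 ± 0.41 is given as a description. The list had summed levels of 2458 to 3317 FPKM in HS_DT, 1945 to 10744 FPKM in HS_SCR and 769 to 1132 FPKM in 0.4% salt kidneys.

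None of 10 T and NK cell genes tested passed; Cd4, which rat macrophages also express, was at 0.38 ± 0.18, and Zap70 at -0.08 ± 0.13. That list summed to 114 to 139 FPKM in HS_DT, 84.3 to 140.4 FPKM in HS_SCR and 97.8 to 102 FPKM in 0.4% salt kidneys, with Klrb1 under 0.1 FPKM throughout. Of 10 mast cell and basophil genes 8 were under 0.1 FPKM in every library, and the list summed to 10.3 to 10.999 FPKM in HS_DT, 6.39 to 13.2 FPKM in HS_SCR and 9.92 to 10.8 FPKM in 0.4% salt kidneys. Kit made up most of that sum, and its change in HS_SCR over 0.4% salt kidneys was -0.19 ± 0.21. The single B cell gene tested, Cd79b, rose by 0.91 ± 0.24, in a list of 7 measured genes that summed to 2.69 to 4.64 FPKM in HS_DT, 3.56 to 9.68 FPKM in HS_SCR and 2.07 to 2.31 FPKM in 0.4% salt kidneys. Of 5 dendritic cell genes Batf3 rose, by 0.54 ± 0.14, and the list summed to 15.5 to 16.9 FPKM in HS_DT, 15.1 to 17.001 FPKM in HS_SCR and 13.9 to 15.7 FPKM in 0.4% salt kidneys. Beside the B cell and dendritic cell counts, 8.20% of all loci rose. Of 6 genes of all leukocytes 5 did not pass. Cd52, the sixth, averaged 0.902 FPKM in HS_DT, 3.08 FPKM in HS_SCR and 0.237 FPKM in 0.4% salt kidneys, so it passed the filter on low values only through HS_SCR, and its change of 1.53 ± 0.41 is given as a description.

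Of 16 proximal tubule genes tested 5 fell in HS_SCR relative to 0.4% salt kidneys, and none rose, where 4.88% of all loci fell and 8.20% rose. Those with the largest changes were Miox, an inositol oxygenase, at -4.43 ± 0.90, the phosphate transporter Slc34a1 at -3.85 ± 0.97, the organic anion transporter Slc22a6 at -3.41 ± 0.86 and the brush border protease Mep1a at -3.35 ± 0.85. The list summed to 1256 to 4301 FPKM in HS_DT, 216 to 1922 FPKM in HS_SCR and 2787 to 6472 FPKM in 0.4% salt kidneys. Of 10 thick ascending limb genes 4 fell: Egf at -2.36 ± 0.50, the calcium-sensing receptor Casr at -1.60 ± 0.25, Tmem72 at -1.13 ± 0.16 and SLC12A1 at -0.90 ± 0.11. That list had sums of 2480 to 3411 FPKM in HS_DT, 1233 to 3135 FPKM in HS_SCR and 2783 to 4385 FPKM in 0.4% salt kidneys. None of 9 principal cell genes passed, with a median of 0.43, and Hsd11b2 and Krt19 were at 0.43 ± 0.16 and 0.83 ± 0.29. FPKM is a share of the RNA in a library, so a smaller tubular share and a larger myeloid share cannot be told apart in it.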

How the data were processed

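RNA-seq of the renal outer medulla gave 1 library for each of 9 rats, 3 in each of 3 groups. Per the labels' protocols, Trizol was used for extraction and an Illumina NeoPrep system for the libraries. The deposited values are FPKM at 30315 loci, computed by the authors. Per the submitters' processing notes, the tools include Trim Galore 0.2.5 and Cufflinks 2.2.1 and the build is rn5. The aligner and annotation were not given in the sources used here. A further column with 1 rat number repeated held identical values at all 30315 loci, and this 1 column was not used. Depth is unknown, so no counting interval is given, and the 3 libraries of a group limit the precision. FPKM is relative to the library total, so a large change in abundant RNA shifts all other values.

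The 14338 loci whose mean reached 1 FPKM were tested as log2(FPKM + 1) with limma 3.58.1 (limma-trend) in R 4.3.3, in 1 fit of 3 groups with 6 residual degrees of freedom. Fold changes on this scale understate those of low genes. Tests were two-sided with Benjamini-Hochberg adjustment over all loci tested, and loci with an adjusted p under 0.05 were called. An exact permutation test was run for each of 10 genes in 3 comparisons (30 tests). Each library is a separate rat. The script was tested on simulated data. Rat numbers matched columns to samples. The 10 genes and the lists were chosen with earlier results of these data known. All 10 are described; from each list up to 4 called genes with the largest change in HS_SCR minus 0.4% salt are named, or the 2 with the smallest p where none was called. Symbols of all 10 matched RefSeq; promoter windows are those of RefSeq on GRCr8. Alternatives changed the pseudocount, filter, scaling, variance moderation, library weights, libraries, covariates and replicate block.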

Additional observations from a re-analysis of the deposited data

How the results depend on the processing

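In HS_SCR minus 0.4% salt no alternative reversed any of the 10 genes; of 219 values, 178 kept direction and call, 36 lost the call and 5 gained it. The count of 7 was 0 with the proximal tubule score in the fit as covariate, and 0 without the 2 libraries with the highest score (added after seeing the data); none of all loci tested was called in either fit, and the median change of the 10 genes was 0.69 and 0.85, against 0.90. The count ranged from 2 to 9 when each library was left out in turn. The share of all loci called higher ranged from 1.81% to 20.5% over the same fits. In HS_DT minus HS_SCR the count of 0 was 1 with library weights, where 10.4% of all loci were called and 6.1% fell. The gene called was Mrc1, lower in HS_DT (limma adjusted p 0.0424). The count ranged from 0 to 1 with a library left out, where 0% to 16% of all loci were called. In HS_DT minus 0.4% salt it was 8 with library weights, where 8.22% of all loci were called higher. It stayed at 0 with each library left out, where at most 0.0698% of all loci were called. The F test's 5 became 9 with library weights (27.4% of all loci called), 0 with the proximal tubule score and 0 without the 2 libraries. With a library left out it ranged from 0 to 9, where 0% to 27% of all loci were called.

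Reversed values were as follows. In HS_DT minus HS_SCR, Csf1r was at 0.0456 under quantile normalization and ranged from -0.20 to 0.029 with a library left out. Lilrb4 was at 0.0241 with library weights, 0.14 with the proximal tubule score and 0.0406 without the 2 libraries, and ranged from -0.18 to 0.0507. Fcer1g ranged from -0.36 to 0.35. In HS_DT minus 0.4% salt, Mrc1 was at -0.11 without the 2 libraries. Cd163 was at -0.0435 with weights, -0.0295 with the score and -0.21 without the 2 libraries, and ranged from -0.15 to 0.19. With the rat number run as a factor, Lst1 and Tyrobp lost the call in HS_SCR minus 0.4% salt. Cd163 gained it there, at 4.11 (limma adjusted p 0.0492). That value rests on HS_SCR replicate 3, the only Cd163 level above 1 FPKM and the only HS_SCR rat in the higher run. It is given as a description. The cause of these shifts was not tested. No scaling moved the median of all loci by more than 0.1.

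The labels do not say that replicate numbers pair rats. Residuals correlated over 0.1 in 5 of 9 same-numbered pairs of libraries, against 2 of 18 pairs with different numbers, and 5 of 9 libraries correlated best with one of their own number. Not every same-numbered pair passed 0.1, so no pairing was taken. With the replicate block 7 genes rose in HS_SCR over 0.4% salt, where 7.92% of all loci rose. In each comparison of HS_DT 0 were called, where 0% of all loci were. Depth is unknown; Cd163 at under 1 FPKM in 8 libraries is the value it limits most.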
